A study of Mus musculus with 7 samples.

Results

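The miR-15/16 family was followed in mouse hepatocytes as 8 mature miRNAs picked by name: mmu-miR-15a-5p, mmu-miR-15b-5p, mmu-miR-16-5p, mmu-miR-195a-5p, mmu-miR-497a-5p, mmu-miR-322-5p, mmu-miR-322-3p and mmu-miR-503-5p, written without the mouse prefix from here on. All 8 were among the 1966 mature miRNAs counted, and all 8 were among the 450 with enough reads to test. The samples were small RNA libraries of hepatocytes from livers digested with collagenase, 3 of the genotype labelled WT and 4 of the genotype labelled ALAS12-KO, and both genotypes carry the treatment label TMX. The series title and design text name ALAS1 and ALAS2, the 5-aminolevulinate synthases that start heme synthesis, and ask whether they bear on small RNAs. The labels give neither the alleles, nor what drives a deletion, nor the age of the mice, and miRNA counts hold no transcript by which the deletion could be checked. Whether each replicate is its own animal is also not stated. The p-values therefore describe the scatter among these 7 libraries, some of which may be technical.

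miRNAs of this family guide Argonaute to messenger RNAs through the seed, bases 2 to 8 from the 5′ end, and are known for repressing cyclins, other cell cycle genes and the survival factor Bcl2. Each hairpin precursor gives a 5p and a 3p arm, of which one usually stays in Argonaute as the guide while the other is largely degraded. The miR-15a/16-1 and miR-15b/16-2 pairs are expressed in most tissues, the miR-195a and miR-497a pair is known from resting and differentiated cells, and miR-322 with miR-503, the mouse form of the human miR-424 locus, from muscle, endothelium and embryonic tissue.

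The mature sequences are shown because they decide who belongs to the family by seed and which members could be confused in counting. The RefSeq tables on GRCm38.p6 held all 8 members. They are written 5′ to 3′ with the seed in capitals.
miR-16-5p: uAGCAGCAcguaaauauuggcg
miR-195a-5p: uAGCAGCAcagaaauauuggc
miR-15a-5p: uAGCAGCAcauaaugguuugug
miR-15b-5p: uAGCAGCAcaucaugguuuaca
miR-497a-5p: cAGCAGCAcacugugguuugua
miR-322-5p: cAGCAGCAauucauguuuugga
miR-503-5p: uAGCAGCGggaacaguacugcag
miR-322-3p: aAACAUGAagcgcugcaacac

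The first 6 share the seed AGCAGCA, which 10 of 1679 mature mouse miRNA names in the tables carry (0.596%). miR-503-5p differs from miR-15a-5p within the seed at its last base (A8G, positions from 1 at the 5′ end), and miR-322-3p, the other arm of the miR-322 hairpin, has an unrelated seed. The label of a shared seed family therefore covers 6 of the 8 members. Outside the seed the closest pair is miR-16-5p and miR-195a-5p, which differ at 2 of the 21 bases compared (G10A and U11G). miR-15a-5p and miR-15b-5p differ at 4 of 22 bases. The sources used here do not say how reads that match several members were handled.

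The 8 members come from 4 loci. On GRCm38 (mm10), Mir15a lies on chromosome 14 at 61632027 to 61632110 (minus strand) in an intron of the noncoding RNA Dleu2, and Mir16-1 at 61631880 to 61631972 overlaps a Dleu2 exon. Mir15b, on chromosome 3 at 69009772 to 69009835 (plus strand), and Mir16-2, at 69009902 to 69009996, lie in introns of Smc4, a condensin gene. Mir497 (chromosome 11, 70234717 to 70234800, plus strand) and Mir195a (70235042 to 70235135) overlap no other annotated gene except Mir497b, which covers Mir497 on the opposite strand. miR-497b had at most 2 reads in a library. Mir322 (chromosome X, 53054255 to 53054349, minus strand) and Mir503 (53053984 to 53054054) head a cluster that goes on with Mir351, Mir542, Mir450-2, Mir450-1 and Mir450b and lie outside any host gene in the annotation. The same mature miR-16-5p is made from Mir16-1 and Mir16-2, so its reads cannot be divided between chromosomes 14 and 3. The arms opposite miR-16-5p do differ, and are shown because they are the reads that name the locus, again with bases 2 to 8 in capitals.
miR-16-1-3p: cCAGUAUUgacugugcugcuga
miR-16-2-3p: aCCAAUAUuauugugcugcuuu

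The libraries held 7719180 to 21962191 miRNA reads, so 1 CPM (1 read in 1000000 miRNA reads) stood for 7.72 to 22.0 reads. The hepatocyte label held, with the hepatocyte miRNA miR-122-5p at a mean of 578599 CPM (SD 13175, n = 3) for WT and of 576745 CPM (SD 35794, n = 4) for ALAS12-KO. Markers of other liver cells were present in every library as well, and ALAS12-KO replicate 1 stood apart by low values of many of them. CPM was also rescaled with TMM factors, which assume that most miRNAs do not change. The factors ran from 0.806 in ALAS12-KO replicate 1 to 1.13 in WT replicate 3. The median log2 fold change of all 450 miRNAs was 0.06 with TMM and −0.12 with library totals. Among those with an unadjusted p below 0.05, 54.8% were higher in ALAS12-KO with TMM and 27.3% with library totals.

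The members spanned more than 3 orders of magnitude in reads, and miR-16-5p made up most of the family. Averaged over the 7 libraries it stood at 30099 CPM and ranked 3 to 4 among all miRNAs of a library. miR-15a-5p followed at 2433 CPM (rank 29 to 32), then miR-322-5p at 441, miR-15b-5p at 335, miR-195a-5p at 239, miR-497a-5p at 176, miR-503-5p at 41.6 and miR-322-3p at 12.2 CPM. The ranges of miR-16-5p and miR-15a-5p were separate from all lower ones. miR-322-5p, miR-15b-5p, miR-195a-5p and miR-497a-5p overlapped their neighbours in this order. miR-322-5p was above miR-15b-5p in 6 of 7 libraries, and so was miR-15b-5p above miR-195a-5p, while miR-195a-5p was above miR-497a-5p in 7 of 7. The mature arms are 21 to 23 bases long, and these values are reads not divided by length. miR-16-5p took 87.6% to 90.5% of family reads in every library, and miR-15a-5p 6.78% to 8.06%.

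**Figure D1:**
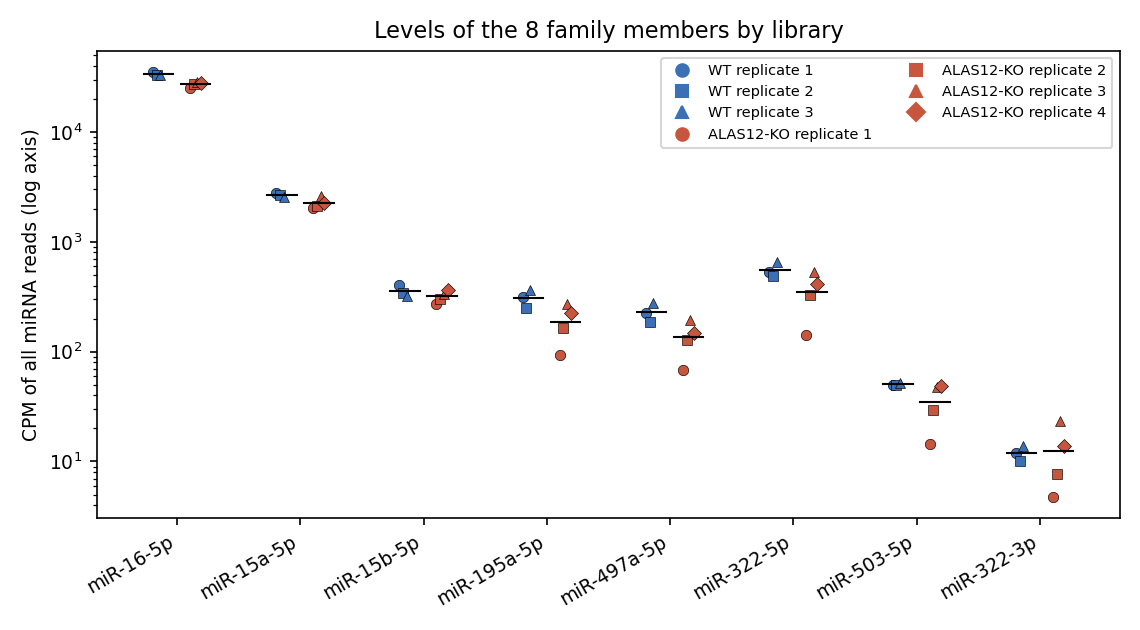
CPM of all miRNA reads on a log axis for the 8 members, 1 point per library (WT left, n = 3; ALAS12-KO right, n = 4), with horizontal lines at the group means. miR-16-5p lies near 30099 CPM, and ALAS12-KO replicate 1 (red circle) is the lowest point for all 8 members on this scale.

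The comparison of the genotypes asked whether any member differed in abundance. With edgeR's quasi-likelihood test and Benjamini-Hochberg adjustment over all miRNAs at a threshold of 0.05, 0 of 8 members passed, against 0% of all 450 (84, or 18.7%, at unadjusted p under 0.05). DESeq2 called 22 of 450 and limma-voom 0, and neither called a member. With TMM and the main filter, the 3 members of the broadly expressed pairs had log2 fold changes near 0. The 4 guide arms of the other 2 loci had lower means in ALAS12-KO. At unadjusted p under 0.05 and lower in ALAS12-KO stood 2 of 8 members, miR-195a-5p and miR-497a-5p, against 8.44% of all miRNAs tested. Leaving out 1 library moved this count between 0 and 3, and it was 0 without WT replicate 1, WT replicate 3, ALAS12-KO replicate 2 or ALAS12-KO replicate 4. Under scaling by library totals it was again 2, but for miR-15a-5p and miR-16-5p, against 12.4%. Without ALAS12-KO replicate 1 it was 2, against 12.6%. The median log2 fold change of the 8 members was −0.26, beside 0.06 for all tested. With library totals these medians were −0.42 and −0.12.

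For miR-16-5p, the most abundant member and a known repressor of cyclin D1, CPM was 35204, 33050 and 33245 in WT and 25138, 27639, 28468 and 27949 in ALAS12-KO. All 4 ALAS12-KO values lay below all WT values, with means of 27299 ± 1480 CPM (SD, n = 4) and 33833 ± 1191 CPM (SD, n = 3). Of the 8 members 2 were lower without overlap on this scale, miR-16-5p and miR-503-5p, against 15.3% of all tested. On TMM-scaled CPM the groups overlapped, at 31500 ± 1738 and 28890 ± 2861. The log2 fold change was −0.12 ± 0.11 (SE; edgeR adjusted p = 0.551) with TMM and −0.31 ± 0.05 (adjusted p = 0.0547, unadjusted 4.64e-04) with library totals. With miR-122-5p left out of the total, miR-16-5p ran from 77412 to 82147 CPM in WT and from 61191 to 68410 CPM in ALAS12-KO. It was lower there without overlap, as were 17.8% of single miRNAs on that scale. The separation of miR-16-5p thus appeared with both totals and not with TMM, and its sign was the same throughout. Without ALAS12-KO replicate 1 the TMM estimate was −0.19 ± 0.10 (edgeR adjusted p = 0.294).

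miR-15a-5p, processed beside miR-16-1 from Dleu2, stood at 2803, 2668 and 2539 CPM in WT and at 2035, 2102, 2618 and 2265 CPM in ALAS12-KO. ALAS12-KO replicate 3 lay within the WT range and the other ALAS12-KO libraries below it. Its log2 fold change was −0.07 ± 0.12 with TMM (edgeR adjusted p = 0.765) and −0.24 ± 0.10 with library totals (0.270). miR-15b-5p, from Smc4, stood at 409, 345 and 318 CPM in WT and at 272, 300, 338 and 362 CPM in ALAS12-KO. The groups overlapped, and the TMM estimate of 0.01 ± 0.15 (edgeR adjusted p = 0.993) turned to −0.17 ± 0.15 with library totals. miR-15a-5p was 6.26 to 7.98 times as abundant as miR-15b-5p, a ratio free of scaling, with means of 7.53 (SD 0.588, n = 3) for WT and 7.12 (SD 0.652, n = 4) for ALAS12-KO.

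The opposite arms of the 2 miR-16 hairpins differed in abundance far more between the loci than between the genotypes. miR-16-1-3p had 282 to 747 reads in a library and miR-16-2-3p 11 to 33, so that the chromosome 3 arm stood at 3.50% to 7.02% of the chromosome 14 arm. For the neighbouring hairpins the 3p arms had the reverse order, with miR-15b-3p at 237% to 331% of miR-15a-3p. How much of a 3p arm survives differs from hairpin to hairpin, so these ratios do not give the share of miR-16-5p from each locus. miR-16-1-3p had a log2 fold change of −0.17 ± 0.16 (edgeR adjusted p = 0.559) and miR-16-2-3p 0.18 ± 0.32 (0.787), so neither was called.

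miR-195a-5p and miR-497a-5p, neighbours on chromosome 11 that are known to hold back the cell cycle in the liver and in muscle stem cells, had lower means in ALAS12-KO. miR-195a-5p stood at 312, 249 and 361 CPM in WT and at 94.1, 165, 269 and 225 CPM in ALAS12-KO. miR-497a-5p stood at 227, 187 and 279 CPM in WT and at 68.6, 126, 196 and 149 CPM in ALAS12-KO. On this scale ALAS12-KO replicate 3 lay inside the WT range for both, and replicate 1 was the lowest library.

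On TMM-scaled CPM both were without overlap, 2 of 8 members against 9.33% of all tested miRNAs that lay lower without overlap. The gap was narrow for miR-195a-5p, whose lowest WT value was 244.96 and highest ALAS12-KO value 243.12. Its log2 fold change was −0.57 ± 0.25 (edgeR unadjusted p = 0.0487, adjusted 0.264), with ALAS12-KO at 192 ± 54.8 CPM (SD, n = 4) and WT at 284 ± 37.7 CPM (SD, n = 3). For miR-497a-5p it was −0.63 ± 0.25 (edgeR unadjusted p = 0.0319, adjusted 0.231), with ALAS12-KO at 138 ± 38.4 and WT at 214 ± 31.8 CPM. Without ALAS12-KO replicate 1 the estimates were −0.42 ± 0.18 and −0.48 ± 0.18, with edgeR adjusted p of 0.201 and 0.171. In bulk samples such as these, fewer cells of a type and less RNA per cell cannot be told apart.

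These cluster mates kept nearly the same proportion in every library. miR-497a-5p stood at 72.9%, 75.3% and 77.3% of miR-195a-5p in WT and at 72.9%, 76.7%, 72.9% and 66.2% in ALAS12-KO. The ratio of miR-195a-5p to miR-16-5p, which it resembles in all but 2 bases, was far less even, from 0.374% in ALAS12-KO replicate 1 to 1.09% in WT replicate 3.

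miR-322-5p, the guide arm of the chromosome X hairpin and the mouse form of miR-424-5p, also had a lower mean in ALAS12-KO. It stood at 536, 485 and 659 CPM in WT and at 142, 329, 529 and 410 CPM in ALAS12-KO. ALAS12-KO replicate 3 again reached the WT range, and replicate 1 was the lowest. TMM-scaled means were 519 ± 57.7 CPM (SD, n = 3) and 357 ± 128 CPM (SD, n = 4), with a log2 fold change of −0.54 ± 0.30 (edgeR unadjusted p = 0.104, adjusted 0.332). Unlike those of miR-195a-5p and miR-497a-5p, its groups overlapped on that scale, by less than 1 CPM. Without ALAS12-KO replicate 1 the estimate was −0.34 ± 0.16 (edgeR adjusted p = 0.267), which is over 1.5 times smaller.

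miR-503-5p, which shares the primary transcript of miR-322 and targets similar cell cycle genes, stood at 49.5, 49.5 and 52.1 CPM in WT. In ALAS12-KO it stood at 14.5, 29.3, 47.9 and 48.4 CPM. The WT libraries were close to each other, and ALAS12-KO replicates 3 and 4 lay just under them while replicates 1 and 2 were well below. On TMM-scaled CPM the groups overlapped, with WT from 45.6 to 48.8 and ALAS12-KO replicate 4 at 47.1. The log2 fold change was −0.40 ± 0.30 with TMM (edgeR adjusted p = 0.470) and −0.20 ± 0.19 without ALAS12-KO replicate 1 (0.594). miR-503-5p stood at 7.90% to 11.8% of miR-322-5p, with means of 9.12% (SD 1.16, n = 3) for WT and 9.99% (SD 1.34, n = 4) for ALAS12-KO.

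**Figure D2:**
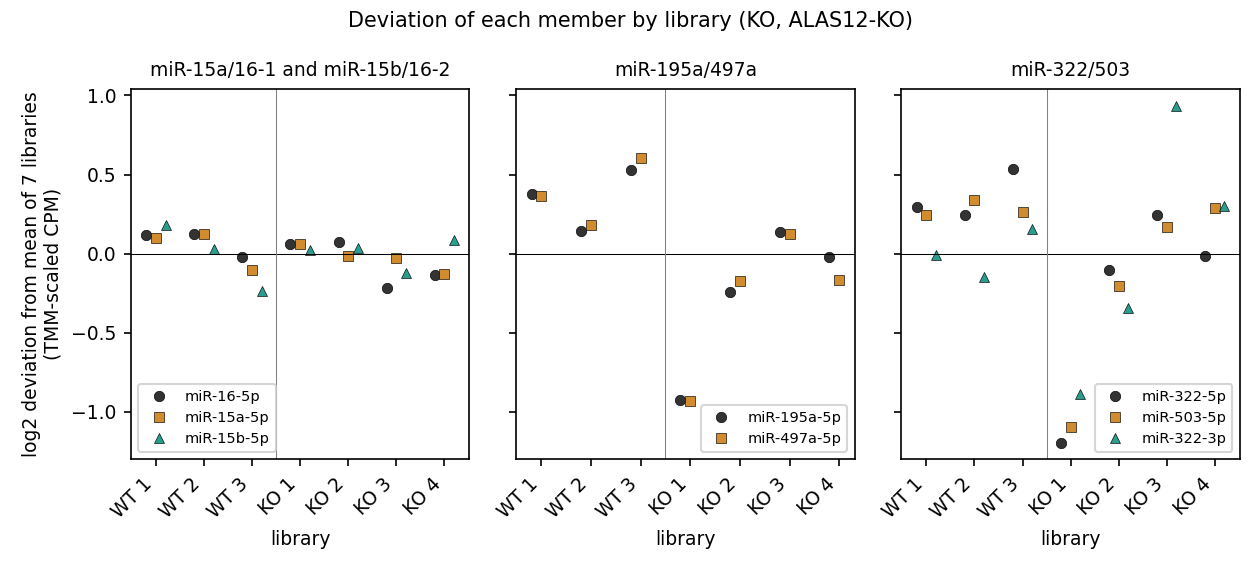
Log2 TMM-scaled CPM of each member minus its mean over the 7 libraries, 1 point per member and library, in 3 panels by locus, with WT left and ALAS12-KO (KO) right of the grey line. The miR-15a, miR-15b and miR-16 points stay between −0.24 and 0.18, while the guide arms of both other loci lie between −0.92 and −1.20 in KO 1.

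Summed by locus, miR-15a-5p, miR-15b-5p and miR-16-5p together made up 3.69% ± 0.135 (SD, n = 3) of a WT library's miRNA reads and 2.99% ± 0.171 (SD, n = 4) for ALAS12-KO, without overlap. On the TMM scale the sums overlapped. On library totals miR-195a-5p with miR-497a-5p took 0.0538% ± 0.0102 and 0.0323% ± 0.0128, and the miR-322 arms with miR-503-5p took 0.0622% ± 0.00928 and 0.0400% ± 0.0186, both with overlap. On the TMM scale the first of these sums was lower without overlap, and the second overlapped, with the lowest WT library at 536.1 and ALAS12-KO replicate 3 at 542.2 CPM. When miR-122-5p was left out of the total, the sums of all the loci were lower without overlap. So were 6 of 8 members, against 17.8% of single miRNAs on that scale. The sum of miR-15a-5p, miR-15b-5p and miR-16-5p ran from 84066 to 89642 CPM in WT and from 67545 to 74353 CPM in ALAS12-KO. miR-195a-5p with miR-497a-5p then ran from 1073 to 1490 CPM in WT and from 423 to 1000 CPM in ALAS12-KO, and the miR-322 arms with miR-503-5p from 1340 to 1688 CPM and from 419 to 1290 CPM.

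**Figure D3:**
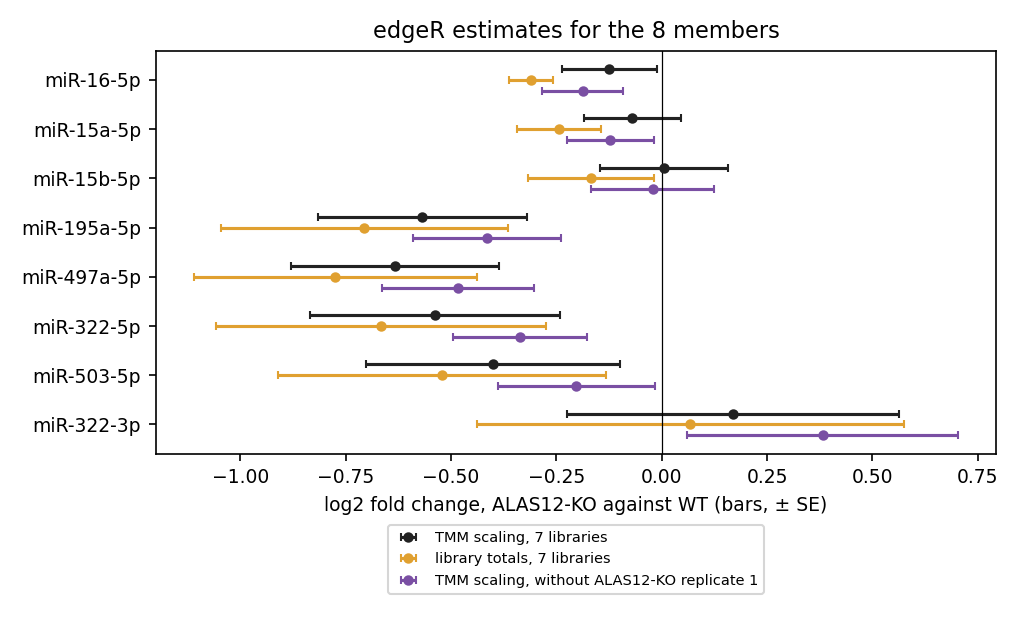
edgeR log2 fold changes of ALAS12-KO against WT for the 8 members, with bars of ± 1 SE, under TMM scaling (black), library totals (yellow) and TMM scaling without ALAS12-KO replicate 1 (purple). miR-195a-5p and miR-497a-5p lie between −0.42 and −0.78 under all 3, miR-15b-5p between −0.17 and 0.01, and miR-322-3p between 0.07 and 0.38.

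miR-322-3p, unlike miR-322-5p, had no lower mean in ALAS12-KO, although both arms ranked the libraries alike within each genotype on TMM-scaled CPM. The hairpin of Mir322 is shown with both arms in capitals, because the 2 arms are cut from it together.
Mir322: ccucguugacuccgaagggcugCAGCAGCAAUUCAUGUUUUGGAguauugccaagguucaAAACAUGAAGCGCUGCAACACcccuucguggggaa
miR-322-3p had 191, 222 and 107 reads in WT and 63, 77, 400 and 229 reads in ALAS12-KO, or 11.9, 10.1 and 13.9 CPM against 4.78, 7.63, 23.4 and 14.0 CPM. ALAS12-KO replicate 3 was the highest of the 7 libraries and replicate 1 the lowest. The log2 fold change was 0.17 ± 0.39 (edgeR adjusted p = 0.835), and it turned to −0.29 without ALAS12-KO replicate 3.

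As a share of miR-322-5p, which does not depend on library scaling, miR-322-3p stood at 2.22%, 2.09% and 2.10% in WT and at 3.37%, 2.32%, 4.43% and 3.41% in ALAS12-KO. All ALAS12-KO libraries were above all WT libraries, replicate 2 by the least. Of all 130 hairpins with both arms tested, 4.62% were higher in ALAS12-KO without overlap. The log2 difference was 0.63 ± 0.22 with an unadjusted p of 0.0255 in limma, rank 5 among the 130 (3, or 2.31%, were higher at unadjusted p under 0.05), and it did not pass the adjustment (limma adjusted p = 0.664). limma called 0 of the 130 arm ratios (0%), with 7 at unadjusted p under 0.05 (5.38%). Leaving out each library in turn gave differences of 0.48 to 0.79, with a lowest adjusted p of 0.166 without ALAS12-KO replicate 2.

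The other 5 hairpins of the family with 2 counted arms overlapped between the genotypes. The 3p arm stood at 0.369% to 0.486% of the 5p arm for miR-15a, 0.571% to 1.14% for miR-195a, 1.85% to 3.43% for miR-497a, 7.64% to 8.70% for miR-15b and 18.5% to 21.9% for miR-503. Their log2 differences ran from −0.07 ± 0.22 for miR-497a to 0.10 ± 0.13 for miR-503, with limma adjusted p of 0.765 to 0.961. miR-195a-3p had only 12 to 60 reads in a library and miR-497a-3p 31 to 102, which limits the precision of their ratios.

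**Figure D4:**
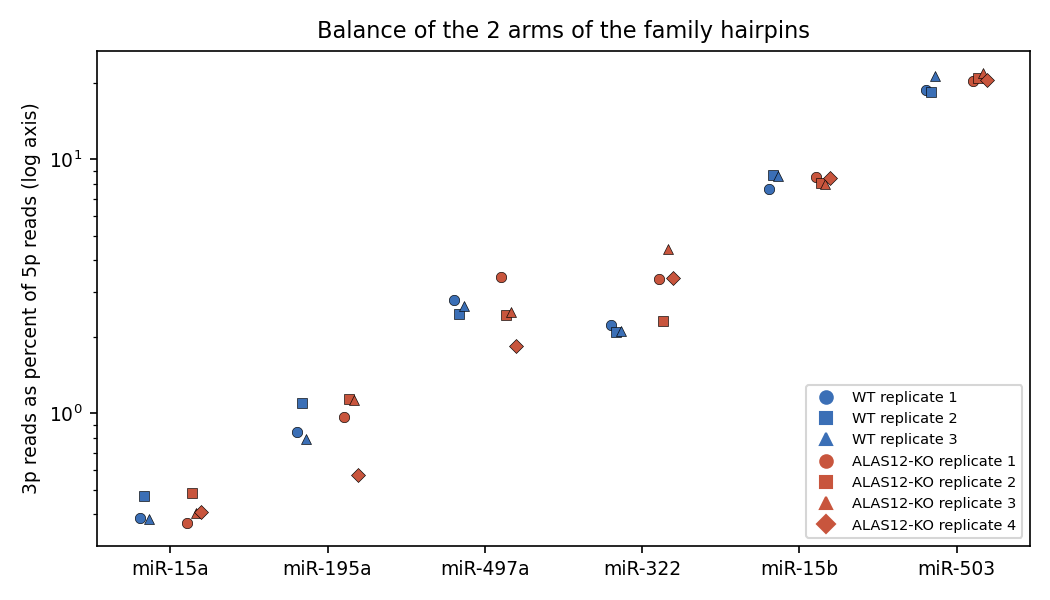
Reads of the 3p arm as a percent of reads of the 5p arm on a log axis, 1 point per library (WT left, n = 3; ALAS12-KO right, n = 4), for the 6 family hairpins with both arms counted. miR-322 is the 1 hairpin whose ALAS12-KO points, 2.32% to 4.43%, all lie above the WT points, 2.09% to 2.22%.

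The other arms of these hairpins and the further hairpins of the chromosome X cluster were listed as their relatives by locus. Of 16 such miRNAs 15 were tested, 12 had a negative log2 fold change, the median was −0.28, and 0 passed the edgeR threshold. With library totals 14 of the 15 were negative. Of all tested miRNAs, 198 of 450 were negative with TMM and 275 of 450 with library totals. miR-497a-3p was the 1 of 15 lower at unadjusted p under 0.05, where 8.44% of all tested miRNAs stood, with −0.73 ± 0.26 (edgeR adjusted p = 0.220), with ALAS12-KO at 3.38 ± 0.783 TMM-scaled CPM (SD, n = 4) and WT at 5.65 ± 1.03 (SD, n = 3). Its groups did not overlap on that scale. miR-195a-3p had −0.48 ± 0.35 (0.449), miR-15a-3p −0.07 ± 0.21 (0.874) and miR-15b-3p 0.00 ± 0.17 (0.995). For these hairpins and that of miR-497a the 3p arms lay close to the 5p arms. Those of miR-322 lay apart, at 0.17 for miR-322-3p and −0.54 for miR-322-5p.

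Among the chromosome X neighbours of miR-322 and miR-503, 7 of the 8 tested were negative, with a median of −0.44. On TMM-scaled CPM 1 of the 8 was lower without overlap, against 9.33% of all tested. This was miR-542-5p, at 3.05 to 3.34 in WT and 0.847 to 2.80 in ALAS12-KO, with 9 to 68 reads in a library. Its groups overlapped on library totals. miR-542-3p, the most abundant, stood at 64.7, 58.3 and 91.7 CPM in WT and at 18.1, 43.2, 71.8 and 49.0 CPM in ALAS12-KO, with a log2 fold change of −0.52 ± 0.33 (edgeR adjusted p = 0.385). miR-351-5p, known as a relative of miR-125, had −0.44 ± 0.36 (0.4996) and miR-450b-5p −0.10 ± 0.31 (0.885). ALAS12-KO replicate 1 was the lowest library for 8 of 8, and without it 5 of the 8 were negative, with a median of −0.23, beside 214 of 445 and 0.03 for all tested. miR-351-3p, with 1 to 8 reads in a library, was not tested.

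Likeness was measured by the root mean square distance between centred log2 TMM-scaled values over the 7 libraries. The most alike miRNAs among 449 others were found for miR-16-5p, miR-195a-5p, miR-322-5p and miR-503-5p. For miR-16-5p these were miR-16-1-3p (0.08), miR-3068-5p (0.08) and miR-15a-5p (0.08), where the median of all others was 0.45, and miR-195a-5p ranked 244 at 0.47. For miR-195a-5p they were miR-497a-5p (0.07), miR-598-3p (0.10) and miR-145a-5p (0.12), a smooth muscle and stellate cell miRNA, with a median of 0.60. miR-322-5p ranked 6 for it. For miR-322-5p they were miR-126a-5p, an endothelial miRNA (0.06), miR-542-3p of its own cluster (0.08) and miR-146a-5p, an NF-κB target (0.09), with a median of 0.67. For miR-503-5p they were miR-503-3p (0.09) and both arms of the myeloid miR-223, miR-223-3p (0.10) and miR-223-5p (0.12), with a median of 0.62. All of these distances share the libraries and the TMM factors.

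Mesenchymal, endothelial and leukocyte markers were low in ALAS12-KO replicate 1, as were the members from the loci of miR-195a and miR-322, and the part of these cells in the results was not tested. Scaled with TMM, ALAS12-KO replicate 1 held the lowest value among the 7 libraries for 5 of 5 members from these loci and for 0 of 3 members from the miR-15/16 pairs. It was the lowest there for 8 of 9 mesenchymal, 2 of 2 endothelial, 6 of 6 leukocyte, 3 of 5 cholangiocyte, 1 of 4 red cell and 0 of 7 hepatocyte markers, and for 120 of the 450 tested miRNAs. With library totals it was the lowest for all 8 members, those of the miR-15/16 pairs included, and for 183 of the 450. When miR-122-5p was left out of the total, ALAS12-KO replicate 1 was the lowest for 6 of 8 members. Of the 3 members from the miR-15/16 pairs it was the lowest for 1, and of all miRNAs for 147 of 449. This count therefore set the loci apart on the TMM scale and, less sharply, without miR-122-5p, but not with library totals. Free of scaling, miR-322-5p stood at 0.565% of miR-16-5p in ALAS12-KO replicate 1 and at 1.19%, 1.86% and 1.47% in replicates 2, 3 and 4. In WT it stood at 1.52%, 1.47% and 1.98%. Summed mesenchymal markers (the miR-143/145a and miR-199/214 groups) ran from 4189 to 6308 TMM-scaled CPM in WT, reached 4081 to 5272 in 3 ALAS12-KO libraries and only 1974 in ALAS12-KO replicate 1. Endothelial miR-126a arms ran from 34965 to 46551 in WT and from 28865 to 32965 in those 3, with ALAS12-KO replicate 1 at 13590. Leukocyte markers ran from 5417 to 6897 in WT and from 5669 to 6686 in those 3, with ALAS12-KO replicate 1 at 2852. No marker was at 0 in any library. Of the tested markers, 8 of 9 mesenchymal, 2 of 2 endothelial, 6 of 6 leukocyte, 5 of 5 cholangiocyte and 4 of 4 red cell miRNAs had negative log2 fold changes, and 7 of 7 hepatocyte miRNAs positive ones, with medians of −0.56, −0.56, −0.24, −1.27, −0.51 and 0.34. Of all 450 tested, 198 were negative. Without ALAS12-KO replicate 1 the medians were −0.35, −0.36, −0.04, −1.13, −0.47 and 0.20, and 4 of the 6 leukocyte markers were negative. With library totals the hepatocyte median was 0.13 and 1 of the 7 was negative. Cholangiocyte markers summed to 128 to 215 CPM in WT and 67.5 to 99.3 in ALAS12-KO, and red cell markers to 18.9 to 26.8 and 11.3 to 19.7.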

How the data were processed

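The authors deposited 1 table per library of raw read counts per mature miRNA name, as the whole-number values show, with 1966 miRNAs and 5 summary entries that entered neither library sizes nor tests. Cutadapt, limma, mm10 and hg38 are named in the submitters' processing notes, without role or version, and which aligner and counter were used is not given in the sources used here. Per the labels' protocols, control RNAs were added to the RNA, and they were not analysed here, so levels are relative to all miRNAs.

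CPM was computed on summed miRNA reads. All miRNAs passing filterByExpr (minimum count 10) were fitted with edgeR 4.0.16 in R 4.3.3 (robust quasi-likelihood test, TMM factors) for ALAS12-KO against WT, with Benjamini-Hochberg adjustment over all 450. Log2 ratios of minor over major arm reads, 0.5 added to each, were fitted with limma 3.58.1 over 130 hairpins. Shares and ratios between members were described without a test. Fits were tested on simulated data. Alternatives were other scalings and filters, DESeq2 1.42.0, limma-voom, leaving out each library in turn and a block for replicate number. Within a group, any 2 libraries differed well beyond counting error (chi-square over its degrees of freedom 112 to 1288). Positions came from GENCODE M21 and sequences from RefSeq (GRCm38.p6).

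The members and lists were chosen with earlier results of these data known. Named were the 8 members, their other arms and cluster neighbours, the 3 miRNAs most like each of 4 members, and marker lists by their sums.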

Additional observations from a re-analysis of the deposited data

How the results depend on the processing

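Of the 8 members, 0 had an adjusted p under 0.05 in any of the 15 alternatives, edgeR fits as well as DESeq2 and limma-voom. The signs of miR-15a-5p, miR-16-5p, miR-195a-5p, miR-497a-5p, miR-322-5p and miR-503-5p were the same under all of these alternatives. The log2 fold change of miR-15b-5p, close to 0, turned to −0.014 with DESeq2-type size factors, −0.015 in DESeq2, −0.17 with library totals, −0.087 with upper-quartile factors, −0.040 without a filter and −0.13 with a mean CPM of at least 10, and ran from −0.12 to 0.11 when 1 library was left out. That of miR-322-3p ran from −0.29 to 0.38 when 1 library was left out. With a mean CPM of at least 10, miR-16-5p had −0.27 (edgeR adjusted p = 0.0935) and miR-15a-5p −0.21 (0.188), both more negative than with the main filter. Over all miRNAs, library totals called 2, no filter 13 and DESeq2 22, and leaving out 1 library called 0 to 1. Arm ratio differences near 0 changed sign when 1 library was left out, running from −0.067 to 0.11 for miR-15a, −0.068 to 0.025 for miR-15b, −0.060 to 0.28 for miR-195a and −0.23 to 0.074 for miR-497a. The log2 ratio of mean shares was −0.30 for miR-15a/15b/16 and −0.31 for all 8 members on library totals, and −0.12 and −0.13 on the TMM scale. The causes were not tested, beyond the scaling itself. With 7.72 to 22.0 reads per CPM, depth limits mainly the 3p arms.

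The labels give both groups replicates 1 to 3. Deviations of same-numbered libraries correlated at −0.01, −0.40 and −0.02, which gave no sign of pairing by number. So few libraries, centred on their own group means, cannot exclude it. With a replicate block over those 6 libraries edgeR called 0 of 438 miRNAs, and miR-15b-5p had −0.057 and miR-322-3p −0.14. Each WT library correlated best with an ALAS12-KO library of another number, at 0.15, 0.34 and 0.46.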

Other observations

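Besides the members, 4 mature miRNAs in the counts carry the seed AGCAGCA. miR-195b had 3 reads and miR-6353 36 reads over the 7 libraries, and miR-6342 and miR-6419 had 0, so the family seed in these libraries rested on the listed guide arms.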
